A study of Mus musculus with 8 samples.

Results

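Voltage-gated sodium channel subunits were described in neurons of the mouse stellate ganglion, the sympathetic ganglion that supplies the heart and the forelimbs. The members were chosen by gene symbol, without regard to their levels, as the alpha subunit genes Scn1a, Scn3a, Scn7a, Scn8a and Scn9a and the beta subunit genes Scn2b, Scn3b and Scn4b. They are 8 of the 19224 genes measured, and all 8 were present in the data. The study sequenced single cells from the stellate ganglia of 8 C57BL6/J mice aged 8 to 10 weeks, in which an adeno-associated virus encoding GFP had been injected into the heart and one encoding tdTomato into the front paws. All mice belonged to this 1 condition, so every neuron came from an animal that had received both viruses, and there was no uninjected control. The comparisons are therefore between subtypes of neurons within mice.

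The 1303 neurons carried the authors' names for 8 subtypes, of which NA1a, NA1b, NA1c, NA2 and NA3 were named as noradrenergic, Ach1 and Ach2 as cholinergic and Glut as glutamatergic. The subtypes held 316, 311, 239, 175, 99, 64, 62 and 37 neurons in that order. Of the 8 mouse names in the data, 5 could each be matched to 1 mouse and gave 1002 neurons with 916296 to 1196621 UMIs (unique molecular identifiers, 1 per captured RNA molecule) per mouse. The matched mice were all of the batch labelled 2, and the other 301 neurons entered pooled values only. A subtype was given a value in a mouse if it had at least 10 neurons there, which left NA1a, NA1b, NA1c and NA2 in 5 mice, NA3 in mice 2, 4 and 5, Ach2 in 2 mice, Ach1 in 1 and Glut in none. The dissociation protocol speaks of 16 left and right ganglia combined, while each library is labelled with a mouse, so it is not clear that 1 library holds 1 animal. The p-values below thus measure only the spread between these libraries, which may be technical.

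The names of the subtypes were compared with marker genes. The summed level of 8 noradrenergic genes ranged from 115 to 153 UMIs per 10000 in NA1a, NA1b, NA1c and NA2 and from 56.8 to 69.0 in NA3. Over all neurons this sum was 61.9 in NA3, the lowest of the 8 subtypes, against 88.3 in Ach2, 124 in Ach1 and 171 in Glut. In Ach2 the 4 cholinergic genes summed to 89.9 UMIs per 10000 over all neurons, whereas in Ach1 they summed to 4.78 and 1 of them was at 0, and in Glut the 3 glutamatergic genes summed to 0.554 with 2 of them at 0. The names NA3, Ach1 and Glut are kept below only as the authors' labels, and the noradrenergic subtypes are the 5 that the authors named so. NA3 also carried genes of satellite glia, with 10 genes summing to 190 to 351 UMIs per 10000 against 3.44 to 25.1 in the other 4 noradrenergic subtypes. Schwann cell and fibroblast genes were also higher in NA3, with summed levels of 10.7 to 15 and 11.7 to 31.3 in NA3 against 1.61 to 3.61 and 0.52 to 3.29 in the others.

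A total of 21 cell barcodes occurred in 2 to 5 libraries and belonged to 73 neurons, of which 55 were NA2, 15 Ach2 and 3 Glut. For 20 of these barcodes the subtype was the same in every library. No neuron of NA1a, NA1b, NA1c, NA3 or Ach1 carried one. The differences called between NA2 and other subtypes are therefore given with and without these neurons where a gene is described, an alternative chosen after the data had been seen. Without them NA2 kept 10, 6, 35, 29 and 15 neurons in mice 1 to 5, so that mouse 2 no longer contributed an NA2 value.

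Voltage-gated sodium channels open when the membrane depolarises and carry the inward current of the action potential. Each channel has a large pore-forming alpha subunit, and smaller beta subunits alter its gating and its place in the membrane. In peripheral neurons the channels cluster at the axon initial segment, where ankyrin and spectrin proteins anchor them. Scn9a is the alpha subunit best known from sympathetic and pain-sensing neurons, Scn8a is the main alpha subunit of mature nodes of Ranvier and initial segments, Scn3a is abundant in developing neurons, and Scn1a is known for its part in fast-spiking neurons and in epilepsy. Scn7a differs from the other alpha subunits in that it responds to extracellular sodium rather than to voltage and is expressed in glia as well as in some neurons.

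Scn1a, Scn9a and Scn7a lie next to one another on chromosome 2 in the mouse build GRCm38.p6, at chr2:66270781-66440837, chr2:66480080-66635114 and chr2:66673426-66784910, all on the minus strand, and Scn3a lies nearby at chr2:65457118-65567591 on the same strand. Scn8a is on the plus strand of chromosome 15, at chr15:100869863-101045938. The beta subunit genes are on the plus strand of chromosome 9, Scn3b at chr9:40269216-40291618, Scn2b at chr9:45117876-45130070 and Scn4b at chr9:45138624-45154155. Scn1a, Scn3a, Scn2b and Scn3b are overlapped only by genes on the opposite strand (Gm13630, Gm13595, Gm10684 and Gm47266 in this order). Scn9a is overlapped by Gm13629 and Gm23046 on the opposite strand and by Gm13627 on its own strand. Whether reads were counted by strand is not given in the sources used here. It is therefore not known whether reads of the opposite-strand genes were kept apart, and strand could not separate those of Gm13627. No annotated gene overlaps Scn7a, Scn8a or Scn4b.

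The start regions of Scn8a and Scn9a are shown because, of Scn1a, Scn3a, Scn8a and Scn9a, the NA1 subtypes differed most from NA2 in Scn8a and least in Scn9a. Each sequence is the 250 bases before 1 start site that RefSeq lists for the gene in GRCm38.p6, read 5' to 3' on the strand of the gene. Both start sites lie inside the full spans given above, which reach further upstream, and neither window overlaps an exon of the GENCODE annotation. They are chr15:100870395-100870644 on the plus strand for Scn8a and chr2:66634963-66635212 on the minus strand for Scn9a. Capitals mark the letters ACAAAG, the core bound by SOX factors, or their reverse complement CTTTGT.
Scn8a: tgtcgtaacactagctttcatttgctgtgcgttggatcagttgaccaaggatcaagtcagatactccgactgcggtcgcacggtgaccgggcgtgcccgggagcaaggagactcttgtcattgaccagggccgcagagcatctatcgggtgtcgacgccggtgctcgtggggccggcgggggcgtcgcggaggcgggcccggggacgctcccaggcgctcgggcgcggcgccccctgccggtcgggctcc
Scn9a: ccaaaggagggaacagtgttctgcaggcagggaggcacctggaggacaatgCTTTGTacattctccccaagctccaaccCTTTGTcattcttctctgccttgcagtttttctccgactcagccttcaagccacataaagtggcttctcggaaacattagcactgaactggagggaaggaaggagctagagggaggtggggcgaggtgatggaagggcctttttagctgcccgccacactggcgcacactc
The Scn8a window was 68% G or C and the Scn9a window 54.4%, against a median of 52.4% over all 32851 windows of this kind. ACAAAG was searched for on both strands and occurred in 16.5% of all windows and in 2 of the 7 windows of the members, that of Scn9a, where it occurs 2 times, and that of a second start of Scn8a. The GC box GGGCGG was in 32.7% of all windows and in 1 of the 7, that of Scn7a, and the TATA box TATAAA in 12.4% and in 0 of the 7. The 7 windows belong to 6 members, Scn1a, Scn7a, Scn8a, Scn9a, Scn2b and Scn4b. These matches are a description of letters and not of binding.

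The first comparison asked whether the level of each subunit differed between the 5 noradrenergic subtypes. Levels are the mean over neurons of UMIs per 10000, and differences are on the scale of log2(mean + 0.1), which understates the change of low genes. A gene was tested if it reached a mean of 0.5 in at least 3 of the 23 profiles of 1 subtype in 1 mouse, and it was called at a Benjamini-Hochberg adjusted p below 0.05 in limma with the mouse as a block. Scn4b did not reach this level, and the other 7 members did. Scn9a did so in every subtype and mouse. Scn8a reached it in all 15 NA1 profiles and in 0 of 5 NA2 and 1 of 3 NA3 profiles, and Scn1a in all 15 NA1 profiles, 1 of 5 NA2 and 0 of 3 NA3. Scn7a reached it in NA3 in 3 of 3 mice and NA1b in 4 of 5. Members that passed through the subtypes where they are high had to differ to some extent, so the counts of calls below are given as a description. The subtypes had been made by the authors from the expression of these same neurons, so the tests show how steady a difference was over mice and are no independent evidence for the groups. By the F test over the 5 subtypes 7 of the 7 tested members were called, where 67.9% of all 6185 genes tested were called, with adjusted p from 5.25e-12 for Scn8a to 0.0326 for Scn2b. The count for the members is thus read against a high background.

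Between pairs of subtypes, 36 of 70 member comparisons were called. Against NA2, NA1a was higher in 4 members and lower in 1 of 7 where 48.6% of all genes were called, NA1b was higher in 5 and lower in 0 where 56.3% were called, and NA1c was higher in 4 and lower in 0 where 59.9% were called. Against NA3, NA1a was higher in 5 and lower in 1 where 19.1% were called, NA1b was higher in 4 and lower in 1 where 22.6% were called, and NA1c was higher in 5 and lower in 1 where 26.8% were called. NA2 was higher than NA3 in 1 member and lower in 3, where 39.2% of all genes were called. Among NA1a, NA1b and NA1c only 1 of 21 member comparisons was called, where 4.14% of genes were called for NA1a minus NA1b, 5.68% for NA1a minus NA1c and 1.54% for NA1b minus NA1c. Over all genes tested the median log2 difference ran from 0.23 to 0.29 for NA1a, NA1b and NA1c minus NA2 or NA3 and was -0.11 for NA2 minus NA3, and the differences below stand beside these shifts. For the 7 members the median was 1.09, 1.49 and 0.78 against NA2 and 1.40, 1.08 and 0.91 against NA3 for NA1a, NA1b and NA1c, and 0.23 for NA2 minus NA3.

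**Figure D1:**
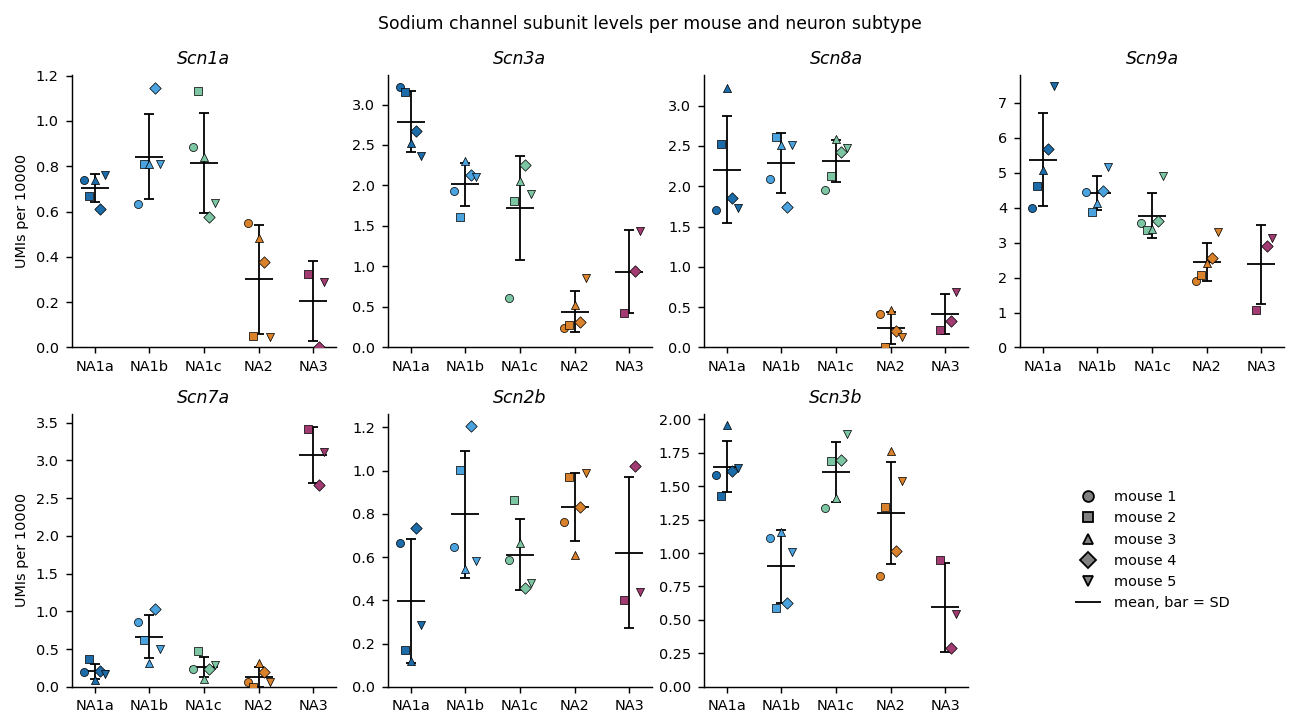
Level of each of the 7 tested subunits (UMIs per 10000, mean over neurons) in the 5 noradrenergic subtypes, with 1 marker shape per mouse, a line at the mean over mice and bars for the SD. Scn8a lies between 1.71 and 3.22 in every NA1a, NA1b and NA1c value and at most 0.694 in NA2 and NA3, while Scn7a lies between 2.68 and 3.42 in NA3 and at most 1.04 elsewhere.

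Scn8a, the alpha subunit of initial segments and nodes, was high in NA1a, NA1b and NA1c and close to absent in NA2. Its level in mice 1 to 5 was 1.71, 2.52, 3.22, 1.85 and 1.73 UMIs per 10000 in NA1a, 2.09, 2.61, 2.51, 1.74 and 2.51 in NA1b, and 1.96, 2.12, 2.59, 2.42 and 2.48 in NA1c. In NA2 it was 0.417, 0, 0.459, 0.200 and 0.132, and in NA3 it was 0.221, 0.327 and 0.694 in mice 2, 4 and 5. The lowest value of the NA1 subtypes was above the highest of NA2 and NA3. The means were 2.21 ± 0.660 (SD, n = 5), 2.29 ± 0.369 and 2.31 ± 0.265 in NA1a, NA1b and NA1c, 0.242 ± 0.194 in NA2 (n = 5) and 0.414 ± 0.248 in NA3 (n = 3). On the log2 scale NA1a, NA1b and NA1c exceeded NA2 by 2.95, 3.03 and 3.06 (SE 0.31, limma adjusted p from 8.10e-11 to 3.06e-10), and by 2.84, 2.92 and 2.95 without the shared barcodes. They exceeded NA3 by 2.06, 2.14 and 2.16 (SE 0.36, limma adjusted p from 1.70e-05 to 3.86e-05). The 3 NA1 subtypes did not differ from one another beyond their spread in Scn8a, with adjusted p of 0.942 and above between neighbours in the order of levels. NA2 was lower than NA3 by -0.89 (limma adjusted p = 0.0484), a call lost without the shared barcodes (-0.64, adjusted p = 0.147) and without mouse 2 (-0.80, adjusted p = 0.0731), mouse 4 (-1.05, adjusted p = 0.0888) or mouse 5 (-0.51, adjusted p = 0.423).

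Scn3a, the alpha subunit abundant in developing neurons, followed the same division. In NA1a it was 3.22, 3.15, 2.53, 2.67 and 2.37 UMIs per 10000 in mice 1 to 5, in NA1b 1.93, 1.61, 2.30, 2.13 and 2.1, and in NA1c 0.605, 1.81, 2.05, 2.25 and 1.89. In NA2 it was 0.246, 0.273, 0.520, 0.318 and 0.858, and in NA3 0.421, 0.944 and 1.44 in mice 2, 4 and 5. NA1a and NA1b did not overlap NA2 or NA3, whereas the NA1c value of mouse 1 fell within both. The means were 2.79 ± 0.379, 2.01 ± 0.263 and 1.72 ± 0.647 (SD, n = 5) in NA1a, NA1b and NA1c against 0.443 ± 0.256 in NA2 (n = 5) and 0.936 ± 0.511 in NA3 (n = 3). The log2 difference from NA2 was 2.51, 2.06 and 1.75 (SE 0.28, limma adjusted p from 1.96e-09 to 1.84e-06) and 2.03, 1.58 and 1.26 without the shared barcodes. From NA3 it was 1.68, 1.23 and 0.91 (SE 0.34, limma adjusted p = 0.000246, 0.00608 and 0.0392). The NA1b call against NA3 was lost without mouse 2 (0.94, adjusted p = 0.0792), and the NA1c call without mouse 2 (0.50, adjusted p = 0.380), mouse 3 (0.87, adjusted p = 0.0745) or mouse 4 (0.89, adjusted p = 0.134). Without the deepest 10% of neurons the NA1b and NA1c differences from NA3 were 0.87 (adjusted p = 0.182) and 0.57 (adjusted p = 0.399). Scn3a was lower in NA2 than in NA3 by -0.83 (limma adjusted p = 0.0461). That call was lost without the shared barcodes (-0.36, adjusted p = 0.473) and without mouse 3 (-0.86, adjusted p = 0.0565), mouse 4 (-0.67, adjusted p = 0.241) or mouse 5 (-0.74, adjusted p = 0.173).

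Scn9a, the alpha subunit known from sympathetic and pain-sensing neurons, was detected in every subtype and differed less. In mice 1 to 5 it was 4.00, 4.61, 5.09, 5.69 and 7.49 UMIs per 10000 in NA1a, 4.46, 3.88, 4.15, 4.49 and 5.16 in NA1b, and 3.55, 3.36, 3.39, 3.62 and 4.90 in NA1c. In NA2 it was 1.91, 2.08, 2.41, 2.55 and 3.30, and in NA3 1.08, 2.91 and 3.14 in mice 2, 4 and 5. The lowest NA1 value, 3.36, lay just above the highest value of NA2, 3.30. The means were 5.37 ± 1.33, 4.43 ± 0.481 and 3.76 ± 0.643 (SD, n = 5) in NA1a, NA1b and NA1c, 2.45 ± 0.538 in NA2 and 2.38 ± 1.13 in NA3 (n = 3). NA1a, NA1b and NA1c exceeded NA2 by 1.09, 0.85 and 0.61 on the log2 scale (SE 0.19, limma adjusted p = 1.13e-05, 0.000279 and 0.00608), or by 1.01, 0.76 and 0.52 without the shared barcodes. They exceeded NA3 by 1.33, 1.08 and 0.85 (SE 0.23, limma adjusted p = 2.21e-05, 0.000400 and 0.00499), the last lost without mouse 2 (0.50, adjusted p = 0.156). With each profile centred on its median gene the NA1c difference from NA2 was 0.29 (adjusted p = 0.193), and without the deepest 10% of neurons the NA1b and NA1c differences from NA3 were 0.70 (adjusted p = 0.0712) and 0.47 (adjusted p = 0.238). NA2 and NA3 were not called apart in Scn9a (limma adjusted p = 0.427).

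Scn1a, known for its part in fast-spiking neurons, was 0.738, 0.669, 0.739, 0.611 and 0.759 UMIs per 10000 in NA1a of mice 1 to 5, 0.635, 0.811, 0.809, 1.15 and 0.809 in NA1b, and 0.887, 1.13, 0.843, 0.574 and 0.638 in NA1c. In NA2 it was 0.548, 0.0490, 0.485, 0.379 and 0.0455, and in NA3 0.326, 0 and 0.287 in mice 2, 4 and 5. All NA1 values lay above those of NA2 and NA3, although in NA2 those of mice 2 and 5 were near 0 and those of the other mice were not. The means were 0.703 ± 0.0619, 0.842 ± 0.187 and 0.815 ± 0.222 (SD, n = 5) in NA1a, NA1b and NA1c, 0.301 ± 0.240 in NA2 and 0.204 ± 0.178 in NA3 (n = 3). NA1a, NA1b and NA1c exceeded NA2 by 1.28, 1.49 and 1.44 on the log2 scale (SE 0.40, limma adjusted p = 0.00837, 0.00179 and 0.00234). Without the shared barcodes these differences were 0.83, which was no longer called (adjusted p = 0.108), 1.04 and 0.98, and without mouse 5 the NA1a difference was 0.96 (adjusted p = 0.0855). With at least 20 neurons per value all 3 calls against NA2 were lost, at 0.48, 0.69 and 0.64 (adjusted p from 0.0774 to 0.246). After thinning to 2000 UMIs the differences from NA2 were 1.38, 1.31 and 1.64, and only that of NA1c was called (adjusted p = 0.0884, 0.0885 and 0.0282). Without thinning, NA1a, NA1b and NA1c exceeded NA3 by 1.51, 1.72 and 1.66 (SE 0.48, limma adjusted p = 0.0222, 0.00710 and 0.00840). These 3 calls were lost without mouse 4, in which Scn1a was at 0 in NA3 (0.78, 0.84 and 0.99, adjusted p = 0.367, 0.277 and 0.181). The NA1a call was also lost without the filter on low values (adjusted p = 0.0596) and with at least 20 neurons per value (1.01, adjusted p = 0.0656). With values from as few as 5 neurons the 3 differences from NA3 were 1.89, 2.11 and 2.05 (adjusted p = 0.000767, 0.000166 and 0.000211).

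**Figure D2:**
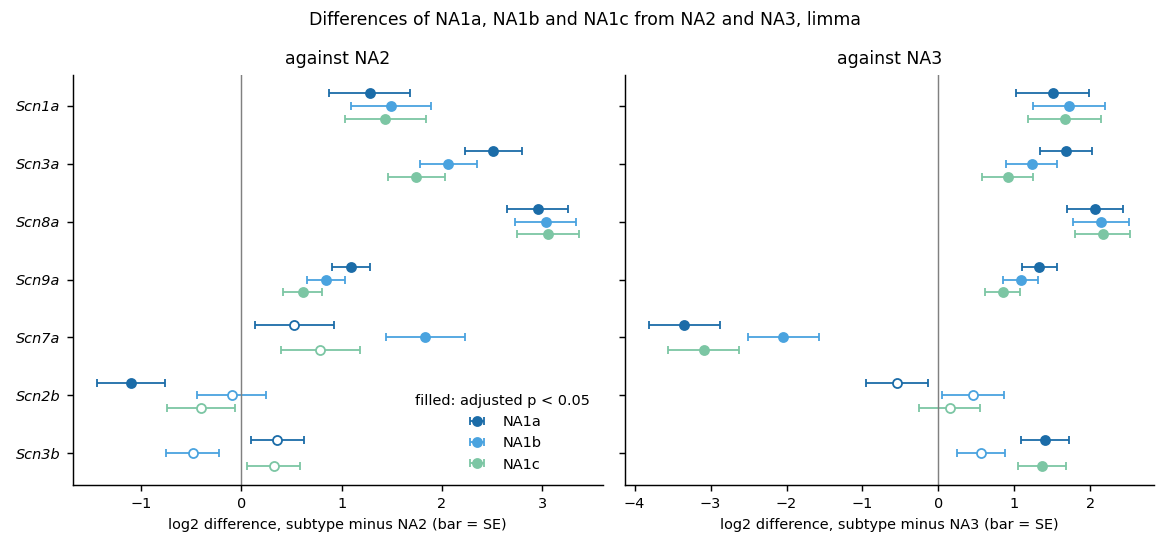
Log2 difference of NA1a, NA1b and NA1c from NA2 (left) and from NA3 (right) for the 7 tested subunits, with bars for the SE and filled points where the limma adjusted p was below 0.05. Scn8a lies near 3 against NA2 and near 2 against NA3, Scn9a lies between 0.61 and 1.33 over both, and Scn7a is below 0 only against NA3.

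Summed over Scn1a, Scn3a, Scn8a and Scn9a, the level was 11.1 ± 0.990 UMIs per 10000 in NA1a, 9.57 ± 0.656 in NA1b and 8.61 ± 1.06 in NA1c (SD, n = 5), against 3.44 ± 0.735 in NA2 (n = 5) and 3.93 ± 1.77 in NA3 (n = 3). It was 4.07 ± 0.585 in NA2 (n = 4) without the shared barcodes. No test was made of this sum. The neurons differed in depth, with a median of 8181.5 UMIs in NA1a, 3338 in NA1b, 2778.5 in NA1c, 2341.5 in NA2 and 6643.5 in NA3, and each neuron was therefore thinned to 2000 UMIs, which kept 813 of 1002 neurons (176, 195, 169, 101 and 85 in this order). A thinned neuron held a UMI of 1.48 ± 0.106, 1.45 ± 0.0900 and 1.41 ± 0.0476 of these 4 genes in NA1a, NA1b and NA1c, and of 0.526 ± 0.196 in NA2 and 0.618 ± 0.298 in NA3. The thinned NA2 values come from the 4 mice that kept at least 10 neurons, or from 3 without the shared barcodes, where this number was 0.574 ± 0.213. Scn8a was found in 30.1%, 38.1%, 41.7%, 4.01% and 12.4% of thinned neurons in NA1a, NA1b, NA1c, NA2 and NA3, and in 70.7%, 58.6%, 53.5%, 9.60% and 22.3% without thinning. For Scn3a the thinned shares were 40.7%, 35.5%, 26.7%, 7.94% and 13.3%, against 82.1%, 56.9%, 45.2%, 20.1% and 42.6% without thinning. For Scn9a they were 63.9%, 55.9%, 55.6%, 35.8% and 34.4%, against 91.5%, 75.0%, 65.4%, 49.5% and 67.9%. The thinned NA2 shares of Scn8a, Scn3a and Scn9a were 3.18%, 10.7% and 40.4% without the shared barcodes. At equal depth the difference between NA1a and NA1c in the share with Scn8a thus changed sign. The thinned shares of NA2 and NA3 lay below those of each NA1 subtype for all 3 genes. Without thinning the share with Scn9a was higher in NA3 (67.9%) than in NA1c (65.4%), and that with Scn3a was close (42.6% and 45.2%). The cells of other types in the ganglia were not analysed here, so the share that free RNA gives in a cell lacking these genes is not known.

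**Figure D3:**
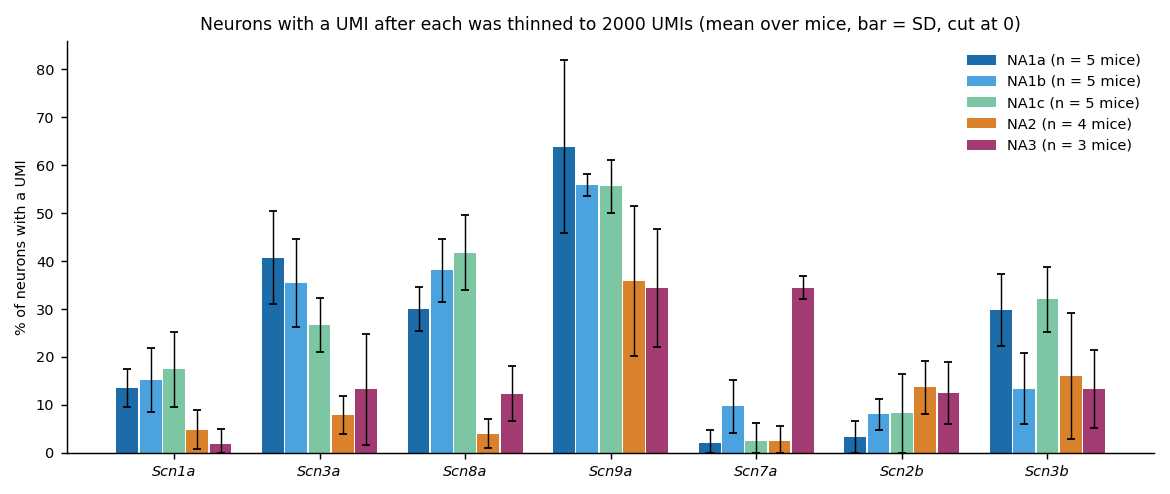
Share of neurons with at least 1 UMI of each subunit after every neuron was thinned to 2000 UMIs, as the mean over mice with bars for the SD, cut at 0. Scn8a, Scn3a, Scn9a and Scn1a are found in a larger share of NA1a, NA1b and NA1c than of NA2 and NA3, and Scn7a in 34.4% of NA3 against at most 9.67% in the others.

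Among the 3 NA1 subtypes none of Scn1a, Scn3a, Scn8a and Scn9a was called. Scn3a ranged from 2.37 to 3.22 UMIs per 10000 in NA1a, apart from NA1b (1.61 to 2.30) and NA1c (0.605 to 2.25), yet the log2 differences of 0.45 and 0.77 did not pass the test (limma adjusted p = 0.468 and 0.106). The mean of Scn9a was 5.37 in NA1a against 4.43 in NA1b and 3.76 in NA1c, again without a call. These missed thresholds do not show that the levels were alike.

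Scn7a, the atypical alpha subunit found in glia and neurons, was highest in NA3 among the noradrenergic subtypes with at least 10 neurons. Scn1a, Scn3a, Scn8a and Scn9a were low in NA3. In mice 2, 4 and 5 Scn7a was 3.42, 2.68 and 3.12 UMIs per 10000 in NA3. In mice 1 to 5 it was 0.199, 0.366, 0.0841, 0.206 and 0.166 in NA1a, 0.854, 0.613, 0.316, 1.04 and 0.505 in NA1b, 0.231, 0.467, 0.106, 0.239 and 0.290 in NA1c, and 0.0636, 0, 0.321, 0.199 and 0.0631 in NA2. These 3 NA3 values lay above all those of the other subtypes. Mice 1 and 3 had fewer than 10 NA3 neurons, and Scn7a was at 1.79 in the 9 of mouse 1 and at 0 in the 7 of mouse 3. The means were 3.07 ± 0.373 in NA3 (SD, n = 3), 0.204 ± 0.103, 0.665 ± 0.285 and 0.266 ± 0.131 in NA1a, NA1b and NA1c, and 0.129 ± 0.130 in NA2 (n = 5). On the log2 scale NA1a, NA1b, NA1c and NA2 were lower than NA3 by -3.35, -2.04, -3.09 and -3.88 (SE 0.47, limma adjusted p = 5.24e-07, 0.00110, 2.94e-06 and 1.52e-08), and NA2 by -3.09 without the shared barcodes. NA1b exceeded NA2 by 1.84 (SE 0.39, limma adjusted p = 0.000144), or by 1.08 without the shared barcodes (adjusted p = 0.0229). Unlike in Scn1a, Scn3a, Scn8a and Scn9a, NA1a and NA1c were not called apart from NA2 (0.53 and 0.78, limma adjusted p = 0.270 and 0.0816). After thinning to 2000 UMIs the NA1b differences from NA3 and NA2 were -2.12 (adjusted p = 0.0506) and 1.42 (adjusted p = 0.105). With values from as few as 5 neurons, which adds these mice, the log2 differences of NA1a, NA1b, NA1c and NA2 from NA3 were -2.29, -0.99, -2.04 and -2.82, and only that of NA1b was no longer called (adjusted p = 0.136). NA1a was lower than NA1b by -1.31 (limma adjusted p = 0.0476), which was lost without mouse 1 (-1.22, adjusted p = 0.214), mouse 3 (-1.34, adjusted p = 0.0561), mouse 4 (-1.16, adjusted p = 0.190) or mouse 5 (-1.34, adjusted p = 0.143).

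The satellite glia genes moved with Scn7a across the subtypes. Of the 10 genes of the list 9 were tested, and all 9 were lower in NA1a than in NA3, the smallest difference being that of Glul (-1.24, limma adjusted p = 0.0178). For NA2 minus NA3 Glul was not called (-0.36, limma adjusted p = 0.472). Within NA3 Scn7a and the glial level ran in opposite directions. In NA3 neurons at or below their mouse's median glial level, Scn7a was 4.73, 3.38 and 4.77 UMIs per 10000 in mice 2, 4 and 5, and in those above it Scn7a was 1.99, 1.98 and 1.37. The summed glial level of these neurons was 248, 33.3 and 114 at or below the median and 463, 346 and 365 above it. A UMI of Scn7a was found in 100%, 71.4% and 60% of the former neurons and in 63.6%, 57.1% and 42.1% of the latter. The NA3 neurons with less glial RNA thus had more Scn7a in 3 of 3 mice. With 3 mice the smallest p of an exact sign-flip test is 0.25, so none was made, and the part of glial RNA or of doublets in the level of Scn7a in NA3 was not tested further. Split likewise, NA1b had more Scn7a above the median in mice 1, 2, 4 and 5 and less in mouse 3. NA1c had more in mice 1, 2, 3 and 5 and less in mouse 4. NA1a had more in mice 1, 2 and 4 and less in mice 3 and 5. NA2 had more in mice 1, 3 and 4, less in mouse 5 and none on either side in mouse 2. These splits were not tested.

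**Figure D4:**
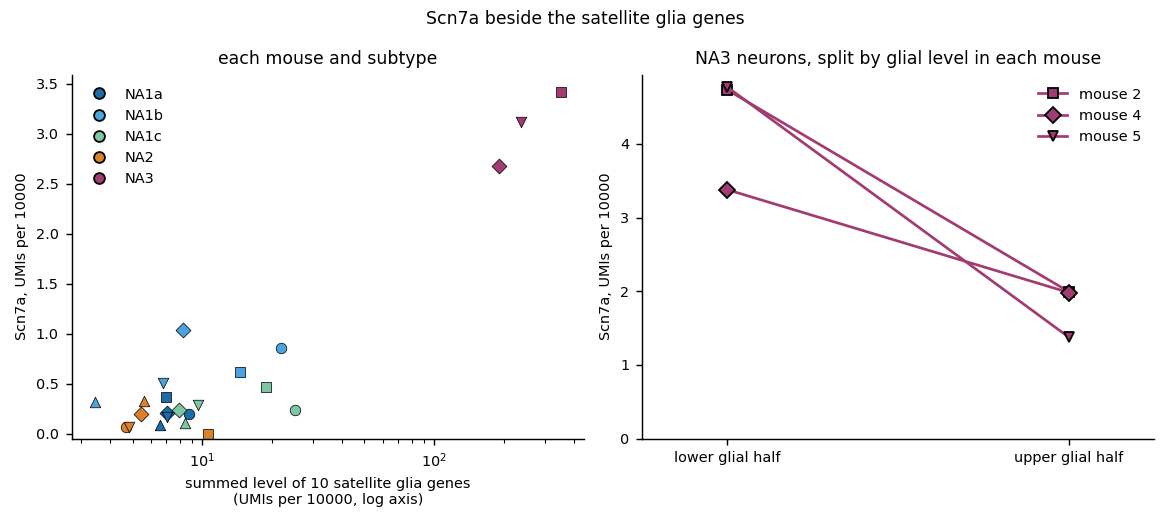
Level of Scn7a (UMIs per 10000) in each mouse and subtype against the summed level of 10 satellite glia genes on a log axis (left), and Scn7a in NA3 neurons at or below and above their mouse's median glial level (right), with 1 marker shape per mouse. NA3 stands apart on both axes, and within NA3 the level of Scn7a is lower in the neurons with more glial RNA in mice 2, 4 and 5.

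Of the beta subunits, Scn3b, which binds the alpha subunit without a covalent bond, was lower in NA3 than in NA1a, NA1c and NA2. It was 1.59, 1.43, 1.96, 1.62 and 1.64 UMIs per 10000 in NA1a of mice 1 to 5, 1.11, 0.591, 1.15, 0.629 and 1.01 in NA1b, and 1.34, 1.69, 1.41, 1.69 and 1.89 in NA1c. In NA2 it was 0.830, 1.34, 1.76, 1.02 and 1.54, and in NA3 0.950, 0.290 and 0.548 in mice 2, 4 and 5. NA1a and NA1c lay above every value of NA1b and NA3. The means were 1.65 ± 0.192, 0.900 ± 0.270, 1.61 ± 0.226 and 1.30 ± 0.379 (SD, n = 5) in NA1a, NA1b, NA1c and NA2, and 0.596 ± 0.333 in NA3 (n = 3). NA1a, NA1c and NA2 exceeded NA3 by 1.40, 1.36 and 1.04 on the log2 scale (SE 0.31, limma adjusted p = 0.00101, 0.00110 and 0.00740). The NA2 call was lost without mouse 4 (0.77, adjusted p = 0.116) or mouse 5 (0.92, adjusted p = 0.0817) and kept without the shared barcodes (1.05, adjusted p = 0.0152). The NA3 values of mice 1 and 3, from fewer than 10 neurons each, were 1.23 and 1.87, and with them NA1a, NA1c and NA2 differed from NA3 by 0.90, 0.87 and 0.55, the last no longer called (adjusted p = 0.117). The log2 difference was 0.84 for NA1a minus NA1b and -0.81 for NA1b minus NA1c, and although the ranges lay apart neither passed the test (limma adjusted p = 0.0578 and 0.155). After thinning to 2000 UMIs the differences of NA1a, NA1c and NA2 from NA3 were 1.18, 1.31 and 0.20 and none was called (adjusted p = 0.111, 0.0561 and 0.834). In Scn3b, unlike in Scn1a, Scn3a, Scn8a and Scn9a, NA2 was thus not called apart from any of the NA1 subtypes (adjusted p from 0.112 to 0.294). The unmatched neurons, described below and not tested, had less Scn3b in NA2 than in each NA1 subtype.

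Scn2b, the beta subunit that is linked to the alpha subunit by a disulfide bond, was called in only 1 pair of subtypes. In mice 1 to 5 it was 0.667, 0.171, 0.119, 0.737 and 0.284 UMIs per 10000 in NA1a, 0.645, 1.00, 0.546, 1.21 and 0.582 in NA1b, and 0.584, 0.865, 0.665, 0.457 and 0.481 in NA1c. In NA2 it was 0.762, 0.971, 0.609, 0.833 and 0.991, and in NA3 0.401, 1.02 and 0.437 in mice 2, 4 and 5. The values of mice 2, 3 and 5 in NA1a lay below all those of the other subtypes, and the rest overlapped. Scn2b was lower in NA1a than in NA2 by -1.10 (SE 0.34, limma adjusted p = 0.00734), or by -0.68 without the shared barcodes (adjusted p = 0.187) and by -0.88 without mouse 2 (adjusted p = 0.0506). Its F test was also lost without mouse 2, 3 or 5 (adjusted p = 0.209, 0.140 and 0.128) and without the shared barcodes (adjusted p = 0.172).

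Scn4b, the beta subunit known for resurgent current in fast-firing neurons, gave 1 UMI in 1 of 1303 neurons, an NA1a neuron of mouse 3. This is 0.00140 UMIs per 10000, with an exact Poisson 95% interval of 3.56e-05 to 0.00783 that covers counting error only. In Ach1 its count of 0 allows a level of up to 0.138 UMIs per 10000, in Ach2 of up to 0.0899 and in Glut of up to 0.171 (3 counts of the total). It was not detectable at this depth outside that neuron.

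Ach1, Ach2 and Glut had too few neurons per mouse for a test. They were described over all neurons pooled, here as the UMIs of a gene over all UMIs of the subtype rather than as a mean over neurons, with exact Poisson 95% intervals that cover counting error only. Scn9a was at 1.75 UMIs per 10000 in Ach1 (1.24 to 2.40), 4.44 in Ach2 (3.75 to 5.21) and 6.97 in Glut (5.79 to 8.32). These values rest on mice that differed. Scn9a in Glut was 10.7 in the matched mice, where 62 of 79 UMIs came from 7 neurons of mouse 5, and 4.26 in the unmatched ones, and in Ach2 it was 3.86 and 5.96, so that Glut was above Ach2 in the matched mice and below it in the unmatched. The pooled Scn9a was 4.75 in Ach2 and 6.98 in Glut without the shared barcodes.

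Scn8a was at 0.874 in Ach1 (0.527 to 1.37), 1.80 in Ach2 (1.37 to 2.32) and 0.343 in Glut (0.126 to 0.746). In Ach1, 9 of the 19 UMIs came from 3 neurons of mouse 1, while the mean over the 55 neurons of mouse 4 was 0.356. In Ach2 the mean over neurons was 0.947 in mouse 1 and 1.83 in mouse 4, the first below every NA1 value of Scn8a. Scn3a was at 0.921, 2.31 and 0.971 UMIs per 10000 and Scn1a at 0.460, 1.50 and 1.14 in Ach1, Ach2 and Glut. In Ach1, 5 of the 10 UMIs of Scn1a came from mouse 1. In Ach2 they were 1.96 for Scn8a, 2.49 for Scn3a and 1.63 for Scn1a without the shared barcodes.

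Scn7a was at 1.10 in Ach1 (0.708 to 1.64), 0.840 in Ach2 and 1.03 in Glut, and at 0.896 in Ach2 without the shared barcodes. In Glut 15 of the 18 UMIs came from 7 neurons of mouse 5, with 2.02 in the matched and 0.297 in the unmatched mice, and in Ach2 it was 0.498 and 1.73. Ach1 also carried satellite glia genes, at a summed level of 110.5 UMIs per 10000 over all its neurons, and their part in its Scn7a was not tested. Scn3b was at 1.52, 0.720 and 0.343, and Scn2b at 0.828, 0.810 and 0.685 in Ach1, Ach2 and Glut, with 0.498 in the matched and 1.62 in the unmatched mice for Scn2b in Ach2 and 0.270 and 0.990 for Scn2b in Glut. No order of these 3 subtypes is read from such values.

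The 301 neurons whose mouse names were not matched gave pooled values of the same kind that had no part in the tests. The matched mice were the 5 of batch 2, and the other 3 mice of the series were labelled batch 1. These neurons may thus differ from the tested ones by batch too. In the unmatched neurons Scn8a was at 2.56, 3.18 and 3.64 UMIs per 10000 in NA1a, NA1b and NA1c against 0.572 in NA2 (0.261 to 1.09, exact Poisson 95% interval). Scn9a was at 3.82 in NA1a and 2.71 in NA1b against 1.65 in NA2. Scn3a was at 1.77 in NA1a and 1.82 in NA1b, so that the higher level of Scn3a in NA1a was not seen in these neurons. Scn7a was at 1.59 in the 7 NA3 neurons, 0.234 in NA1a and 0.208 in NA1b. The NA1b level of Scn7a was thus not above that of NA1a in them. Scn3b was at 1.08, 0.62 and 1.62 in NA1a, NA1b and NA1c against 0.381 in NA2. In these neurons NA2 was thus below each NA1 subtype in Scn3b too, although its value rests on 6 UMIs in 25 neurons.

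A second comparison used the study's division of the neurons of NA1a, NA1b and NA3, the subtypes it ties to the heart, into those with the highest and the lowest 30% of Npy, the gene of neuropeptide Y, a cotransmitter of sympathetic neurons. The limits were at least 52.8 and at most 5.56 UMIs per 10000, with 154 neurons of the matched mice in each stratum. The high stratum was 90.3% NA1a, 5.19% NA1b and 4.55% NA3, and the low stratum 3.25%, 76.6% and 20.1%, so the division and the subtypes cannot be told apart. Of the 6 members tested 2 were called, where 12.3% of all genes tested were called. Scn3b was at 1.63 ± 0.293 UMIs per 10000 in the high stratum and 0.660 ± 0.256 in the low one (SD, n = 5), higher in 5 of 5 mice, with a log2 difference of 1.24 (SE 0.23, limma adjusted p = 0.000297). Scn7a was at 0.216 ± 0.173 in the high stratum and 0.762 ± 0.588 in the low one, lower in 4 of 5 mice, with a log2 difference of -1.22 (SE 0.40, limma adjusted p = 0.0399). After thinning to 2000 UMIs the difference of Scn3b was 1.22 (adjusted p = 0.0584). The Scn7a call was lost without mouse 1 (-1.08, adjusted p = 0.166), mouse 4 (-1.15, adjusted p = 0.113) or mouse 5 (-0.83, adjusted p = 0.242). Without mouse 2, whose value in the high stratum was 0.522, Scn7a did not pass the filter on low values and was not tested. Scn1a, Scn3a, Scn8a and Scn9a had log2 differences of 0.20, 0.36, 0.09 and 0.25 that did not pass (limma adjusted p from 0.179 to 0.817). With the limits set within each subtype, where 19 genes were called in all, Scn3b had a log2 difference of 0.62 (adjusted p = 0.446) and neither member was called.

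Genes whose proteins bind, anchor or turn over sodium channels were taken from a list of 17, of which 11 were tested and 9 were called by the F test, where 67.9% of all genes were called. Against NA2, 5 of the 11 were higher in each NA1 subtype, and 4, 3 and 4 were lower in NA1a, NA1b and NA1c, where 48.6%, 56.3% and 59.9% of all genes were called. Without the shared barcodes 5 were higher in each and 4, 4 and 5 were lower, where 39.3%, 47.5% and 52.1% of all genes were called. Ank3, which encodes ankyrin G, the anchor of the channels, had a mean of 5.73, 6.55 and 7.44 UMIs per 10000 in NA1a, NA1b and NA1c, 1.49 in NA2 and 4.04 in NA3. Its log2 difference from NA2 was 1.94, 2.12 and 2.29 (SE 0.19, limma adjusted p from 6.86e-13 to 1.07e-10) and from NA3 0.65, 0.84 and 1.01 (adjusted p = 0.0391, 0.00586 and 0.000964). Without the shared barcodes the differences from NA2 were 1.65, 1.83 and 2.00. The NA1a call against NA3 was lost without any 1 of the 5 mice (0.45 to 0.77, adjusted p from 0.0534 to 0.268), and the NA1b call without mouse 2 (0.60, adjusted p = 0.102). Sptbn4, the spectrin of initial segments, was at 0.577, 1.16 and 1.15 in NA1a, NA1b and NA1c against 0.0727 in NA2, a log2 difference of 2.16, 3.03 and 3.01 (SE 0.39, limma adjusted p from 2.52e-08 to 1.77e-05), or of 1.81, 2.67 and 2.66 without the shared barcodes. The cell adhesion genes Nfasc and Nrcam, whose proteins join ankyrin at the membrane, exceeded NA2 by 0.96 to 1.15 and by 0.64 to 0.79, and NA3 by 2.07 to 2.27 and by 1.26 to 1.41. Without the shared barcodes they exceeded NA2 by 1.43 to 1.63 and by 0.56 to 0.71. With each profile centred on its median gene the 3 Nrcam calls and the NA1a call of Nfasc against NA2 were lost. Without mouse 5 the NA1a calls of Nfasc (0.58, adjusted p = 0.116) and Nrcam (0.64, adjusted p = 0.0523) and the NA1c call of Nrcam (0.57, adjusted p = 0.0648) against NA2 were lost, the last also without mouse 4 (0.54, adjusted p = 0.0728). Nedd4l, a ubiquitin ligase that removes channels from the membrane, exceeded NA2 by 1.53, 1.56 and 1.77, or by 1.98, 2.01 and 2.22 without the shared barcodes.

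Calm2, which encodes the calcium sensor calmodulin, had a mean of 24.4 UMIs per 10000 in NA2 against 9.07, 7.88 and 6.50 in NA1a, NA1b and NA1c and 6.84 in NA3. Its log2 difference from NA2 was -1.41, -1.63 and -1.89 (SE 0.17, limma adjusted p from 7.00e-12 to 1.19e-08), or -0.99, -1.20 and -1.46 without the shared barcodes. Dpysl2, which encodes the microtubule-binding protein CRMP2, differed by -1.67, -1.51 and -1.48, and S100a10, a partner of annexin A2, by -0.52, -1.12 and -1.57. Without the shared barcodes these were -1.58, -1.42 and -1.39 for Dpysl2 and -0.32, -0.92 and -1.36 for S100a10, of which the NA1a difference of S100a10 was not called (adjusted p = 0.226), as it was not without mouse 3 (-0.43, adjusted p = 0.0999) or mouse 4 (-0.46, adjusted p = 0.0809). Nedd4, a relative of Nedd4l, was lower in NA1a than in NA2 by -0.92 and Calm3 lower in NA1c than in NA2 by -0.61, or by -1.38 and -0.74 without the shared barcodes. Against NA3, 4, 5 and 4 genes were higher and 1, 0 and 1 lower in NA1a, NA1b and NA1c, where 19.1%, 22.6% and 26.8% of all genes were called. Between NA2 and NA3 5 were higher and 1 lower in NA2, where 39.2% of all genes were called. Without the shared barcodes 4 were higher and 2 lower in NA2, where 32.0% of all genes were called. Among the NA1 subtypes Nedd4 was lower in NA1a than in NA1b by -0.70, a call lost without any 1 of the 5 mice (-0.62 to -0.79, adjusted p from 0.0620 to 0.224), S100a10 was higher in NA1a than in NA1c by 1.05, and no gene of the list was called between NA1b and NA1c. Cntn1 and Calm3 were not called by the F test, and Fgf11, Fgf12, Fgf13, Fgf14, Prrt2 and Rangrf were too low to be tested.

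**Figure D5:**
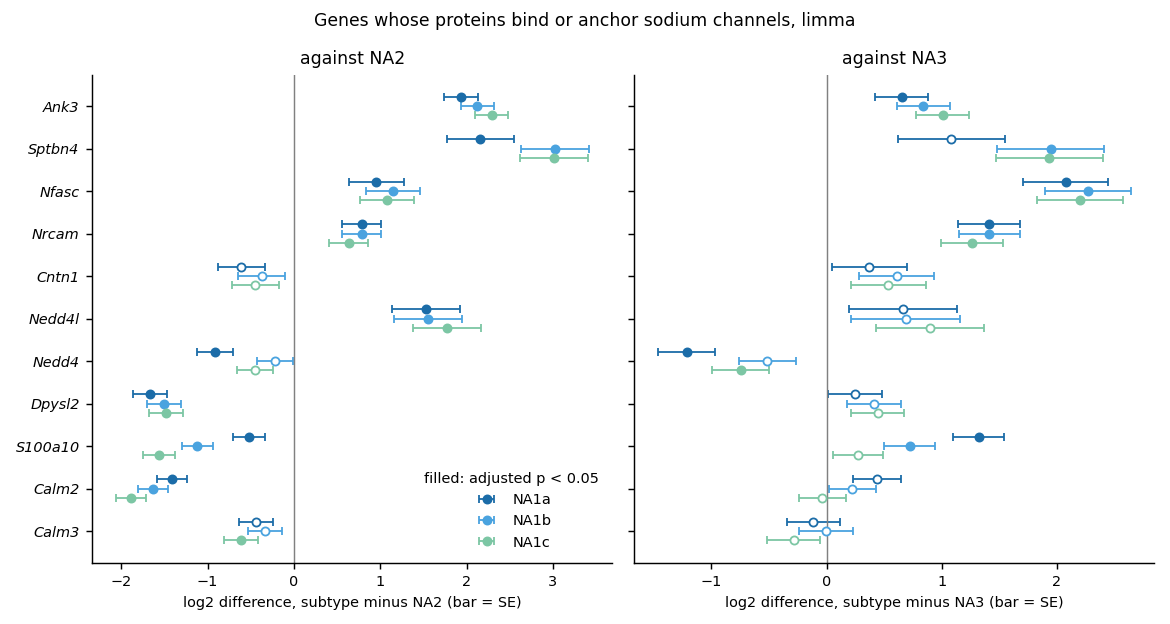
Log2 difference of NA1a, NA1b and NA1c from NA2 (left) and from NA3 (right) for the 11 tested genes whose proteins bind or anchor sodium channels, with bars for the SE and filled points where the limma adjusted p was below 0.05. Ank3, Sptbn4, Nfasc, Nrcam and Nedd4l lie above 0 against NA2, while Dpysl2, S100a10 and Calm2 lie below it.

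The genes whose pattern was most like that of each member were found from Pearson's r over the 23 profiles, after the mean of each mouse had been taken out, as a description. The profiles share mice and depth, and r is dominated by the division between subtypes. Scn8a was most like Grk3 (0.959), Cacna1b, an alpha subunit of N-type calcium channels (0.953), and Lmtk3 (0.951). Scn3a was most like Mycbp2, Jakmip3 and Cep164 (0.929, 0.926 and 0.926), Scn1a like Cntnap2, Zer1 and C77080 (0.902, 0.893 and 0.889), and Scn9a like Atp2b1, a calcium pump of the plasma membrane, Ank2 and Rbfox1 (0.901, 0.875 and 0.862). Scn7a was most like Lgi1, Ntrk2 and Abca8a (0.900, 0.895 and 0.894). The beta subunits had no gene as close, Scn3b being most like Phactr2, Samd4 and Kcnmb4 (0.823, 0.808 and 0.774) and Scn2b like Pdcd6ip, Hadha and Prkar1b (0.739, 0.697 and 0.689). Among the members, r was 0.858 between Scn8a and Scn3a, 0.818 between Scn8a and Scn1a, 0.790 between Scn8a and Scn9a, 0.827 between Scn3a and Scn9a, and -0.647 between Scn7a and Scn3b.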

How the data were processed

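The authors captured cells with the 10x Genomics system, and the submitters' processing notes name Cell Ranger 2.1.1, Seurat, Scanpy and the mouse build mm10. The authors deposited each value as a natural log, ln(1 + UMIs per 10000), and gave every neuron a subtype and a mouse name. Dividing by the smallest step of each neuron gave UMI counts, with 100% of nonzero values within 0.01 of a whole number. The methods name no removal of doublets, and none was applied here.

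Levels were averaged over neurons per mouse and subtype with at least 10 neurons. Genes reaching 0.5 in as many profiles as the smallest subtype had (3) were fitted as log2(mean + 0.1) in limma 3.58.1 (R 4.3.3), with terms for subtype and mouse block and a prior variance that followed intensity, and p-values were adjusted over all genes tested. Strata of Npy were fitted likewise. The mouse given by the label of each library is the block. The deviations of same-mouse profiles had a mean correlation of 0.0712, against -0.0180 between mice. The 3 unmatched mouse names entered pooled values only.

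All 8 members, the partner genes tested and called, and the 3 genes most like each member were named. Members and lists were chosen with earlier results of these data known. Some other genes of the lists are not reported here. Alternatives covered the filter, pseudocount, block, scaling, thinning and leaving out mice or neurons. Python 3.11.15, NumPy 2.4.6, pandas 2.3.3, SciPy 1.17.1 and matplotlib 3.10.9 were used. The subtype fit was tested on simulated counts in which known folds had been set in NA1a.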

Additional observations from a re-analysis of the deposited data

Results flagged for a closer look

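Of 42 groups of 4 or 5 mice tested for a value far from the others, 3 had one, where chance gives about 1 group in 20. Scn3a in NA1c was 0.605 UMIs per 10000 in mouse 1, against 1.81 to 2.25 in the other 4 mice. Scn9a in NA1c was 4.90 in mouse 5, against 3.36 to 3.62 in the others. Scn7a in the high stratum of Npy was 0.522 in mouse 2, against 0.0956 to 0.163 in the others.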

How the results depend on the processing

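The count of genes called by the F test over subtypes was 4197, and it ranged from 2886 (neurons thinned to 2000 UMIs) to 5748 (minimum level of 0.1). Without the replicate block 4131 genes and 7 members were called, and 33 of the 36 pair calls were made, those lost being Scn3a for NA1c minus NA3 (0.84), Scn7a for NA1a minus NA1b (-1.31) and Scn8a for NA2 minus NA3 (-0.72). Of the 36 pair calls, 16 were past the threshold under every alternative and 20 were lost under 1 or more, and none changed direction. The Npy comparison depended more on the processing. Its 481 genes became 283 without the block, 155 after thinning to 2000 UMIs, 19 with strata set within each subtype and 302 to 492 when 1 mouse was left out. Its 2 members called became 1 without the filter, without the block, with summed UMIs, without the deepest 10% of neurons or with NA1c in the strata, 4 with averaged natural log values, 0 after thinning or with strata within each subtype, and 1 to 2 when 1 mouse was left out. Scn7a turned to 0.57 (adjusted p = 0.818) with strata within each subtype. The cause was not tested. Alternatives without shared barcodes were chosen after seeing the data. Scn7a, Scn1a and Scn4b are limited by depth, and NA3 by its 3 mice.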

Other observations

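A few neurons carried a transcript of the reporters injected into the heart or the paws, and were too few for a comparison. Of 6 neurons with GFP, 3 had a UMI of Scn8a, 2 of Scn9a, 2 of Scn3a and 1 of Scn7a. Of 20 neurons with tdTomato, 10 had a UMI of Scn8a, 11 of Scn9a, 5 of Scn3a and 3 of Scn7a. Scn4b was at 0 in all of them.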
